A study of Mus musculus with 3 samples.

Results

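Cluster 8 is a small group of tumour type 1 conventional dendritic cells (cDC1s) named for its transcripts of *Ccr7* and *Il12b*. Its members were the cells with cluster number 8 in the deposited table of cDC1s, which sorts 5806 cells into 12 clusters. They numbered 255 cells, 84 from the WT library, 114 from the sGSN-/- library and 57 from the sGSN-/-Clec9a-/- library. The other 5551 cDC1s of the same table, 2232, 1598 and 1721 in these libraries, served as the comparison. The 3 matrices held 30209 barcodes in all.

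CCR7 is the chemokine receptor that leads dendritic cells out of a tissue, along gradients of CCL19 and CCL21, into lymphatic vessels and draining lymph nodes. Dendritic cells that gain it also change shape, stop taking up material, and raise peptide display, costimulatory ligands, cytokines and several inhibitory molecules. In tumours such cells carry tumour antigen to lymph nodes, and some remain in the tumour close to T cells.

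The series sequenced single cells of MCA205 LA OVA tumours, grown from a mouse fibrosarcoma line that carries ovalbumin. Pre-cDCs, cDC1s and cDC2s were sorted, mixed 1:1:2 and loaded as 1 library per genotype. WT mice were set beside mice that lack secreted gelsolin (sGSN-/-), an actin-severing plasma protein, and mice that also lack *Clec9a* (sGSN-/-Clec9a-/-), which encodes DNGR-1, a cDC1 receptor for the actin filaments of dead cells. The study chose these genotypes to ask whether cDC1 states change when presentation of antigen from dead cells to T cells is altered. It cites earlier work in which loss of secreted gelsolin raised this presentation through DNGR-1. All mice were co-housed, on a C57BL/6J background and 6 to 20 weeks old, with tumours on both flanks that were harvested on day 5. Each library pooled the tumours of its genotype, from 25 males and 12 females (WT), 15 males and 16 females (sGSN-/-) or 10 males and 17 females (sGSN-/-Clec9a-/-). There was thus 1 library per genotype, no replicate, and no test between genotypes. The libraries shared 26 to 28 barcodes in pairs, and no barcode was a cluster 8 cell in more than 1 library.

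Values below are listed for WT, sGSN-/- and sGSN-/-Clec9a-/- in that order. The raw counts of unique molecular identifiers (UMIs) of the cells of each library were summed over cluster 8 and over the other cDC1s. Levels are given as CPM, the UMIs of a gene divided by all UMIs of the sum and multiplied by 1000000. The cluster 8 sums held 1032186, 1270403 and 515307 UMIs, and the other cDC1s held 31643991, 22292644 and 20958243. A cluster 8 cell held a median of 12310.5, 11035.5 and 8459 UMIs, below the 14142.5, 14269.5 and 12286 of the other cDC1s. It also held fewer genes, 2446.5, 2418.5 and 2052 against 3082, 3050 and 2736. Ribosomal protein genes took a median of 14.9%, 14.7% and 16.04% of its UMIs against 23.5%, 23.4% and 24.7%. Mitochondrial transcripts took 1.38%, 1.63% and 1.76%, close to the 1.58%, 1.65% and 1.95% of the other cDC1s.

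The data bore out the label. *Ccr7*, the receptor itself, stood at 2412, 2424 and 1166 CPM in cluster 8 and at 1.26, 2.87 and 2.29 CPM in the other cDC1s. *Fscn1*, which encodes the actin-bundling protein fascin of dendrites, stood at 1078, 874 and 469.6 CPM against 0.758, 0.538 and 0.0954 CPM. *Il12b*, the subunit shared by IL-12 and IL-23, stood at 2434, 2087 and 1048 CPM against 5.97, 12.4 and 9.97 CPM. In each of the 3 libraries cluster 8 was far above the other cDC1s for each of these genes, which were low there. *Ccl22*, a chemokine that draws regulatory T cells through CCR4, stood at 2153, 1178 and 1244 CPM against 9.04, 5.83 and 2.96 CPM. The log2 ratios, as mean ± SD over the 3 libraries, were 9.27 ± 0.79 for *Ccr7*, 9.05 ± 0.27 for *Fscn1*, 7.44 ± 0.94 for *Il12b* and 7.82 ± 0.44 for *Ccl22*. The clusters were drawn from these same counts, so every difference from the other cDC1s is a description with no test, and each SD includes the genotypes.

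The cDC1 identity was kept in part. Of the 8 cDC1 markers, which include the targeted gene *Clec9a*, 0 were higher and 1 was lower, *Naaa*, with a median log2 ratio of −0.80. *Clec9a* had 83, 118 and 0 UMIs in cluster 8. It is targeted in sGSN-/-Clec9a-/-, so its ratio there carries no information on identity. The rule needs all 3 libraries, so its place among the genes not called lower is no evidence that it was kept. *Naaa*, a lysosomal amidase typical of cDC1s, stood at 288, 205 and 390.1 CPM against 1377, 1314 and 1477 CPM. *Xcr1*, the receptor by which cDC1s meet XCL1, stood at 125, 139 and 182 CPM against 208, 227 and 234 CPM. *Irf8* and *Batf3*, the transcription factors that make cDC1s, had mean log2 ratios of −0.85 and −0.75. Both thus fell by less than the 2-fold limit in the mean and remained well expressed, *Irf8* at 723, 680.1 and 625 CPM and *Batf3* at 189.9, 188 and 113 CPM.

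Across the transcriptome, cluster 8 gained strongly in a limited set of genes and lost, more mildly, in a set of similar size. A gene was called higher or lower where its ratio, with 1 CPM added, was at least 2 or at most 0.5 in each of the 3 libraries, among the 6999 genes at 10 CPM or more on average in either group. Of these, 615 genes were higher, 8.79%, and 495 were lower, 7.07%. The gains were larger than the losses, since 291 genes rose at least 4-fold in each library and 38 fell as far. The 615 genes took 12.05%, 11.7% and 9.13% of the UMIs of cluster 8 and 2.24%, 2.26% and 2.16% in the other cDC1s. The 495 genes took 1.40%, 1.32% and 1.56% against 4.64%, 4.55% and 4.50%. The median log2 ratio over all genes tested was −0.25 on the CPM scale and −0.02 with DESeq2 size factors, and list medians below are to be read against that −0.25. List counts are likewise to be read against the shares of 8.79% higher and 7.07% lower.

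The genes that rose most included the 4 markers. Beside them *Ccl5*, a chemokine for T cells and NK cells, rose from 6.32, 21.98 and 16.7 CPM to 2959.7, 3383 and 1867 CPM, by its mean the highest level of all chemokines listed. *Cd63*, a tetraspanin of late endosomes and exosomes, stood at 637, 727 and 404 CPM against 1.96, 1.61 and 1.67 CPM. *Il4i1*, a secreted oxidase that breaks down aromatic amino acids and restrains T cells, stood at 314, 372 and 388 CPM against 2.21, 0.987 and 1.24 CPM. Each of the 3 was thus far more abundant in cluster 8 in each library. *Socs2*, an inhibitor of cytokine signals, reached 306, 264 and 126 CPM, and *Serpinb6b*, an intracellular protease inhibitor, 781, 822 and 503 CPM. *Tnfrsf4*, which encodes OX40, a costimulatory receptor better known from T cells, reached 145, 185 and 95.1 CPM from 0.348, 0.179 and 0.477 CPM. Their mean log2 ratios were 7.53 for *Ccl5*, 7.71 for *Cd63*, 7.20 for *Il4i1*, 7.05 for *Socs2*, 6.70 for *Tnfrsf4* and 6.65 for *Serpinb6b*. The 15 leading genes were completed by *Mreg* (6.40), *Ankrd33b* (6.12), *Nudt17* (6.11), *Arl5c* (6.01) and *Cacnb3* (5.97), of which *Cacnb3* encodes a subunit of voltage-gated calcium channels.

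On GRCm38 with GENCODE M21, the leading genes lie on several chromosomes. The positions were *Ccr7* (ENSMUSG00000037944, chr11:99144196-99155077 on the minus strand), *Fscn1* (ENSMUSG00000029581, chr5:142960343-142973185 on the plus strand), *Il12b* (ENSMUSG00000004296, chr11:44400063-44414033 on the plus strand) and *Ccl22* (ENSMUSG00000031779, chr8:94745590-94751699 on the plus strand). Further positions were *Ccl5* (ENSMUSG00000035042, chr11:83525778-83530518 on the minus strand), *Cd63* (ENSMUSG00000025351, chr10:128900989-128912822 on the plus strand) and *Il4i1* (ENSMUSG00000074141, chr7:44816387-44840809 on the plus strand). *Ccr7*, *Il12b* and *Ccl5* are all on chromosome 11, apart from each other.

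The genes that fell most included sensors and receptors of the resting cDC1. *Cxcr3* (ENSMUSG00000050232, chrX:101731535-101734269 on the minus strand), the receptor for the chemokines CXCL9 and CXCL10, fell from 68.6, 63.2 and 73.8 CPM in the other cDC1s to 6.78, 9.45 and 3.88 CPM. *Tlr3* (ENSMUSG00000031639, chr8:45395665-45411080 on the minus strand), the endosomal sensor of double-stranded RNA that cDC1s are known for, fell from 174, 169 and 183 CPM to 23.3, 20.5 and 31.05 CPM. *March1*, a ubiquitin ligase that takes MHC class II and CD86 off the cell surface, fell from 162, 163 and 144 CPM to 26.2, 19.7 and 21.3 CPM. In all 3 libraries cluster 8 was far below the other cDC1s for these genes, and the libraries did not overlap. *Egr1*, an immediate early transcription factor, fell from 729.8, 675 and 748 CPM to 133, 92.9 and 87.3 CPM. *Rtl8b*, a gene of retrotransposon origin, fell from 71.8, 61.4 and 69.4 CPM to 9.69, 4.72 and 3.88 CPM. The log2 ratios were −3.35 ± 0.55 for *Rtl8b*, −3.24 ± 0.66 for *Cxcr3*, −2.79 ± 0.32 for *Egr1*, −2.79 ± 0.24 for *Tlr3* and −2.76 ± 0.21 for *March1*. Others of the 15 were *Plekha5* (−2.78), *Unc119* (−2.67), *Gna15* (−2.67), *Ccl7* (−2.62), *Ptpre* (−2.48), *Fcrla* (−2.42), *Ramp1* (−2.37), *Iqgap2* (−2.32) and *Gcsam* (−2.32). *Ramp1* encodes a part of the receptor for the nerve mediator CGRP.

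**Figure D1:**
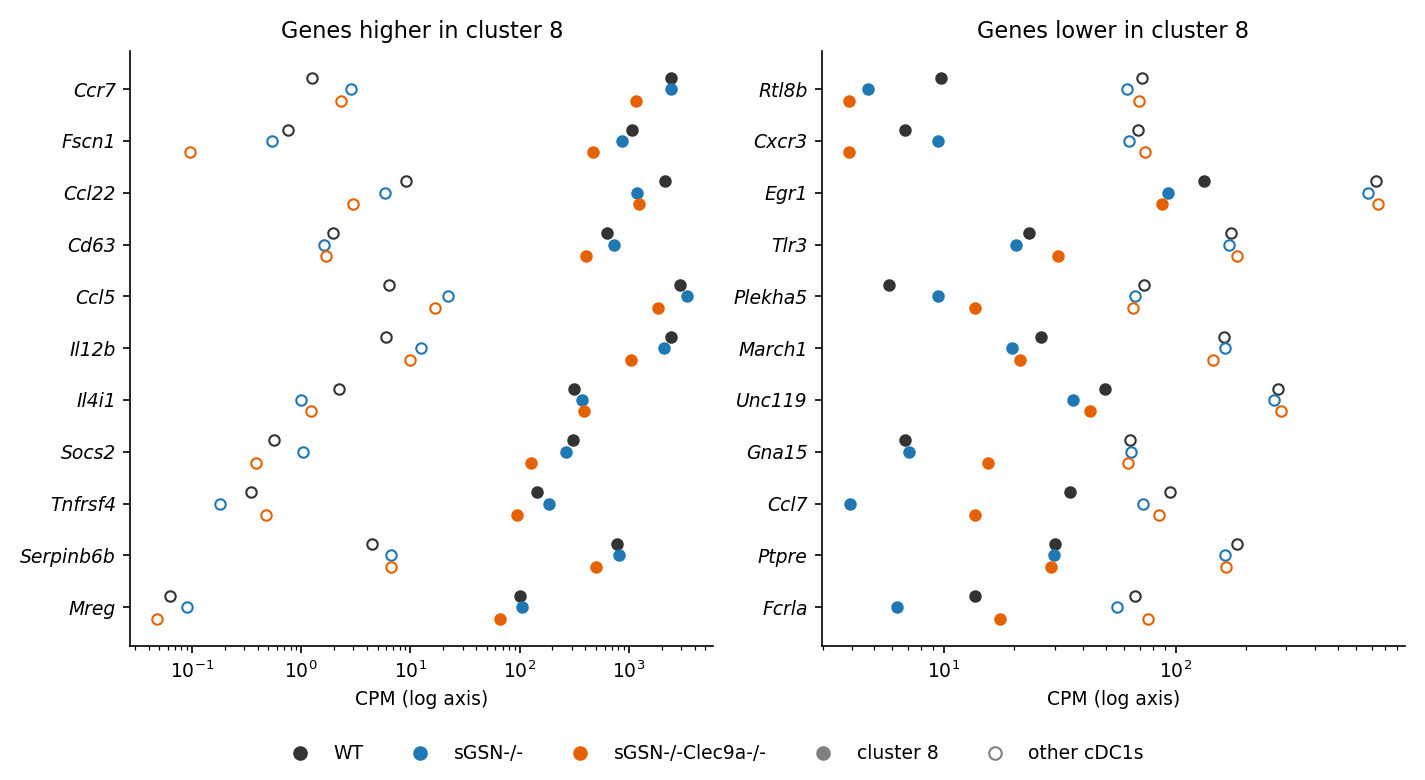
Levels in CPM (log axis) of 11 genes with the largest gain and 11 with the largest loss in cluster 8, with 1 point per library for cluster 8 (filled) and for the other cDC1s (open). For *Ccr7* the filled points lie between 1166 and 2424 CPM and the open points between 1.26 and 2.87 CPM.

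Chemokine receptors changed in both directions. *Ccr7*, *Cxcr4*, *Cx3cr1* and *Ccrl2* were higher, and *Ccr2* and *Cxcr3* lower. *Ccr2*, the receptor for CCL2 and CCL7 that brings cells into inflamed tissue, fell from 296, 280.1 and 284 CPM to 91.1, 44.9 and 44.6 CPM. *Cxcr4*, the receptor for CXCL12, rose from 11.2, 12.8 and 11.8 CPM to 57.2, 59.8 and 27.2 CPM. *Ccr7* alone made up most of the receptor transcripts of cluster 8, since the whole list of 15 summed to 2984, 2920.3 and 1677 CPM there.

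Most of the chemokines tested rose. Of 13 tested, 8 were higher (*Ccl17*, *Ccl22*, *Ccl5*, *Ccl9*, *Cxcl16*, *Cxcl9*, *Cxcl2* and *Cxcl1*) and 1 lower (*Ccl2*), with a median log2 ratio of 1.87. *Ccl7*, a chemokine outside this list, was lower in each library, as given above. Summed over the 15 genes listed they held 7961, 7188 and 5791 CPM against 1680.5, 1666 and 1686 CPM. *Ccl17*, the second ligand of CCR4, stood at 499.9, 607 and 589.9 CPM against 17.7, 25.3 and 12.02 CPM. *Cxcl16*, a membrane-bound ligand of CXCR6 on activated T cells, stood at 663, 789 and 582 CPM against 99.4, 119.5 and 115 CPM. *Cxcl9*, an interferon-induced ligand of CXCR3, stood at 562, 376 and 611 CPM against 115, 155 and 146 CPM. Of the thinned cluster 8 cells, 72.9%, 73.5% and 79.1% had 0 *Cxcl9* UMIs, and the highest had 33, 26 and 34. A count of 0 at this depth does not show that a cell lacks the transcript. *Ccl19*, a ligand of CCR7 itself, had 0 UMIs in all cDC1s, which in cluster 8 allows up to 3.57, 2.90 and 7.16 CPM (upper ends of exact 95% Poisson intervals).

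Some cytokine and cytokine receptor genes rose. Of 21 tested, 8 were higher (*Il12b*, *Il15*, *Il15ra*, *Il2ra*, *Il7r*, *Il21r*, *Csf2rb* and *Csf2rb2*) and 2 lower (*Il18* and *Ifngr1*), with a median of 1.07. *Il15ra*, which presents IL-15 to T cells and NK cells, stood at 66.8, 102 and 83.4 CPM against 3.44, 2.74 and 3.10 CPM. *Il15* itself had a mean log2 ratio of 1.86, so both parts of the complex rose. *Il7r* stood at 70.7, 59.8 and 60.2 CPM and *Il21r* at 113, 124 and 89.3 CPM, with mean log2 ratios of 4.67 and 3.33. *Ifngr1*, a chain of the receptor for interferon gamma, moved the other way, at 101, 64.5 and 103 CPM against 296, 259 and 261 CPM. *Il1b*, an inflammatory cytokine abundant in all these cells, was in neither class at 1783, 1254 and 1712 CPM against 2289, 2218 and 1736 CPM. The partner subunits of *Il12b* were scarce, with 0, 0 and 1 UMIs of *Il12a* and 2, 1 and 0 of *Il23a* in cluster 8, and *Il10* had 0.

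Costimulatory and inhibitory molecules rose together. Of 13 costimulatory genes tested 10 were higher and 1 (*Cd48*) lower, with a median of 3.58, and of 15 inhibitory genes 10 were higher and 0 lower, with a median of 1.93. *Cd80*, a ligand of CD28 and CTLA-4, stood at 195, 216 and 212 CPM against 16.3, 16.5 and 13.9 CPM. *Cd86*, the other such ligand, stood at 443, 416 and 406 CPM against 176, 176 and 168 CPM, a smaller gain from a higher start. *Cd70*, the ligand of CD27, stood at 61.04, 44.9 and 21.3 CPM against 0, 0.0449 and 0.0477 CPM. These 3 act on naive and activated T cells, and each was higher in cluster 8 in each library. *Pdcd1lg2*, which encodes the PD-1 ligand PD-L2, stood at 113, 124 and 50.5 CPM against 2.81, 3.81 and 2.10 CPM. *Cd200*, counted with the costimulatory list although its product calms myeloid cells, stood at 271, 242 and 111 CPM against 11.6, 11.7 and 10.5 CPM. The remaining costimulatory genes counted as higher were *Cd40*, *Icam1*, *Tnfsf4*, *Tnfsf9*, *Tnfrsf4* and *Tnfrsf9*. The remaining inhibitory ones were *Cd274*, *Il4i1*, *Aldh1a2*, *Fas*, *Pvr*, *Nectin2* and the cytokine-signal inhibitors *Socs1*, *Socs2* and *Cish*. *Cd83*, a surface marker of mature dendritic cells, stood at 1384, 1411 and 1644 CPM against 765, 736 and 753 CPM, high in both groups and in neither class.

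The NF-kB pathway, which drives dendritic cell maturation, rose broadly. Of its 22 genes, all tested, 16 were higher and 0 lower, with a median of 1.95. *Relb*, the factor of its noncanonical arm, stood at 529.9, 547 and 329.9 CPM against 27.2, 29.1 and 25.05 CPM. *Nfkbia*, the inhibitor that NF-kB itself induces, stood at 1425, 1623 and 1211 CPM against 287, 258 and 243 CPM. *Traf1*, an adaptor of TNF receptors, stood at 942, 964 and 850.0 CPM against 104, 114 and 104 CPM. Activators and inhibitors of the pathway thus rose side by side. *Rel* (1.94), *Nfkb2* (2.39) and *Map3k14* (2.58), the kinase that opens the noncanonical arm, were also among the 16 by mean log2 ratio.

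The DNA motif GGGNNTTTC, a short form of the NF-kB binding site, was looked for on both strands of the RefSeq promoters (250 bases before to 50 after each start, GRCm38.p6). It lay in 1432 of 32851 promoters, 4.36%. By gene it was found for 1368 of 27025 genes (5.06%), for 294 of the 5632 tested genes with a promoter in the table (5.22%), for 51 of 485 higher genes (10.5%, exact 95% interval 7.93% to 13.6%) and for 23 of 388 lower genes (5.93%, 3.79% to 8.76%). The share among higher genes was thus above that of all tested genes and the share among lower genes close to it. In the NF-kB list 7 of 18 genes with a promoter held it, in a list of 30 genes known from CCR7-positive dendritic cells 3 of 21, and among the 15 leading genes 0 of 11. Stretches before the start of 3 higher genes are shown because they hold the motif in genes with different functions: the apolipoprotein L gene *Apol7c* (chr15:77533327-77533415, minus strand, mean log2 ratio 4.16), the membrane protein gene *Tmem176a* (chr6:48841358-48841446, plus strand, 4.03) and *Nfkbia* (chr12:55492712-55492800, minus strand, 2.42). Capitals mark the motif, on the strand of the gene for *Apol7c* and *Nfkbia* and as its reverse complement for *Tmem176a*.
Apol7c: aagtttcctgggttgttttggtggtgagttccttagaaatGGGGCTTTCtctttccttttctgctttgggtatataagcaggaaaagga
Tmem176a: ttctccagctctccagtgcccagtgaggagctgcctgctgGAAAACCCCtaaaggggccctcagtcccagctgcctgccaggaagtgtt
Nfkbia: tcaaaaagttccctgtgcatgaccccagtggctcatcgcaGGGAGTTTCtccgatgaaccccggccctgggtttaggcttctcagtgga
The site of *Tmem176a* is shared with its divergent neighbour *Tmem176b*, whose mean log2 ratio was 3.56. A match is a description of letters and no measurement of binding.

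Of the transcription factors more rose than fell. Of 28 tested, 8 were higher (*Id2*, *Irf4*, *Irf1*, *Stat5a*, *Stat4*, *Bhlhe40*, *Etv3* and *Nr4a3*) and 1 lower (*Batf*), with a median of 0.64. *Stat4*, the factor that transmits IL-12 signals in lymphocytes, stood at 523, 501 and 278 CPM against 17.9, 18.03 and 12.5 CPM. *Irf1*, a factor induced by interferon gamma, stood at 274, 234 and 175 CPM against 55.8, 54.1 and 54.8 CPM. *Id2*, which cDC1s need to form, was the most abundant factor of the list in cluster 8, at 1082, 1082 and 1056 CPM against 495, 511 and 476 CPM.

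Several genes of survival and death rose as well. Of 23 tested 12 were higher and 0 lower, with a median of 1.92. *Bcl2a1b*, a BCL-2 relative that blocks apoptosis, stood at 1918, 1879.7 and 1483 CPM against 113, 137 and 138 CPM. *Serpinb9*, which inhibits granzyme B and so shields cells from killer lymphocytes, stood at 709, 548 and 448 CPM against 8.66, 8.75 and 7.83 CPM. *Gadd45b*, a stress-response gene, stood at 1659, 1947 and 1762 CPM against 199, 169.7 and 210.2 CPM. *Cflar*, an inhibitor of death receptors, had a mean log2 ratio of 3.12. The 12 also included the death receptor gene *Fas*, at 45.5, 59.04 and 23.3 CPM against 2.18, 1.53 and 1.77 CPM, so genes on both sides of cell death rose.

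Antigen presentation split by class. For MHC class I, 6 of 19 genes tested were higher (*H2-K1*, *B2m*, *Tapbpl*, *Psme2*, *Nlrc5* and *H2-Q7*) and 0 lower, with a median of 0.38. *H2-K1*, a class I heavy chain, stood at 2213, 2335 and 1849 CPM against 743, 763 and 792 CPM, and *Nlrc5*, the activator of class I genes, had a mean log2 ratio of 2.37. For MHC class II, 0 of 14 were higher and 4 lower (*H2-DMa*, *H2-DMb1*, *Ciita* and *March1*), with a median of −0.61. *H2-Ab1*, a class II chain, stood at 6448, 5903 and 8711 CPM against 10355, 10589 and 10669 CPM, in neither class. *H2-DMa*, which loads peptide onto class II, stood at 280.0, 258 and 380.4 CPM against 840.0, 877 and 896 CPM, and *Ciita*, the master activator of class II genes, had a mean log2 ratio of −1.63. Some class I genes thus rose, while *H2-DMa*, *H2-DMb1* and *Ciita* of class II fell, along with *March1*, the ligase that removes class II. The other 10 class II genes were in neither class.

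Uptake and sensing genes moved in both directions. Of 24 tested, 5 were higher (*Ly75*, *Axl*, *Timd4*, *Cybb* and *Ncf1*) and 4 lower (*Tlr3*, *Tlr11*, *Cd24a* and *Fcgr2b*), with a median of −0.49. *Ly75*, which encodes the uptake receptor DEC-205, stood at 319, 283 and 221 CPM against 22.3, 20.7 and 20.1 CPM. *Axl*, a receptor for dying cells, stood at 46.5, 43.3 and 32.99 CPM against 2.40, 4.44 and 3.63 CPM. These uptake receptors rose while the RNA sensor *Tlr3* fell. In lysosome genes 3 of 28 were higher (*Lamp1*, *Cd63* and *Lgmn*) and 3 lower (*Cd68*, *Naaa* and *Ppt1*). These counts lay close to the shares over all genes tested, 8.79% and 7.07%.

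Genes of cytoskeleton and motility were raised in part, 10 of 28 with 0 lower and a median of 0.30. *Marcksl1*, which ties actin to the membrane, stood at 829, 708 and 536 CPM against 90.1, 59.5 and 73.2 CPM. *Tbc1d4*, a regulator of vesicle traffic, stood at 1133, 1017 and 734 CPM against 137, 123 and 134 CPM. *Samsn1*, a signalling adaptor, stood at 1648, 1496 and 881 CPM against 32.8, 27.6 and 26.9 CPM. The other 7 were *Fscn1*, *Marcks*, *Myo1g*, *Arhgap22*, *Arhgap31*, *Adam8* and *Anxa3*, a mix of actin regulators and membrane proteins.

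Some interferon targets rose. Of 8 GTPases induced by interferon gamma that were tested, out of 17, 5 were higher (*Gbp2*, *Gbp4*, *Gbp5*, *Gbp8* and *Gbp9*), with a median of 2.37. *Gbp2* stood at 67.8, 66.9 and 36.9 CPM against 5.31, 5.02 and 3.44 CPM. Of 26 genes of the type I interferon response, 3 were higher (*Oasl1*, *Oasl2* and *Rtp4*) and 1 lower (*Ifi203*), with a median of 0.38. Over all genes tested 8.79% were higher and 7.07% lower, so the counts of this list stood close to those of all genes. The 2 lists were not tested against each other.

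Stress and growth genes mostly fell or did not move. Of 27 immediate early and heat shock genes, 1 was higher (*Dusp2*) and 4 lower (*Fos*, *Jun*, *Egr1* and *Ier2*), with a median of −0.75. *Fos*, a part of the AP-1 factor, stood at 937, 819 and 1176 CPM against 3038, 2671 and 2801 CPM. Of 19 genes of the unfolded protein response, 2 were higher (*Herpud1* and *Sel1l*) and 4 lower (*Pdia4*, *Pdia6*, *Sdf2l1* and *Atf6*), with a median of −0.97. *Pdia4*, a folding enzyme of the endoplasmic reticulum, had a mean log2 ratio of −1.92. *Hspa5*, the most abundant gene of this list, was in neither class, at 626, 563 and 704 CPM against 1025, 1131 and 939 CPM.

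Cell cycle genes gave 2 of 14 higher (*Ccnd2* and *Cdkn1a*) and 0 lower. *Cdkn1a*, which encodes the cell cycle inhibitor p21, stood at 822, 551 and 441 CPM against 112, 121 and 116 CPM. *Mki67*, a proliferation marker, stood at 39.7, 46.4 and 7.76 CPM against 8.25, 9.06 and 8.68 CPM, above the other cDC1s in WT and sGSN-/- and not in sGSN-/-Clec9a-/-. Glycolysis gave 1 of 16 higher (*Pfkfb3*) and 0 lower, and genes of cholesterol efflux and sterol synthesis 3 of 24 higher (*Abcg1*, *Apol7c* and *Scd1*) and 0 lower. For cell cycle, glycolysis, sterol and lysosome genes the list medians lay between −0.26 and −0.15, close to that of all genes, and those of glycolysis, sterol and lysosome genes turned positive with DESeq2 size factors.

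A list of 30 genes known from CCR7-positive dendritic cells was raised nearly whole. Of 29 tested 28 were higher, with a median of 4.55, and the exception was *Cd83*. The list includes the 4 markers of the cluster and was chosen with earlier results of these data known. Its rise is therefore a description and no independent evidence for the label. Summed, the list held 18192, 16537 and 11655 CPM in cluster 8 against 1362, 1319 and 1313 CPM. *Lamp3*, a lysosomal marker of such cells in humans, had 0 UMIs in cluster 8. The sGSN-/-Clec9a-/- library was thus the lowest of the 3 in cluster 8, while the other cDC1s of the libraries were alike.

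**Figure D2:**
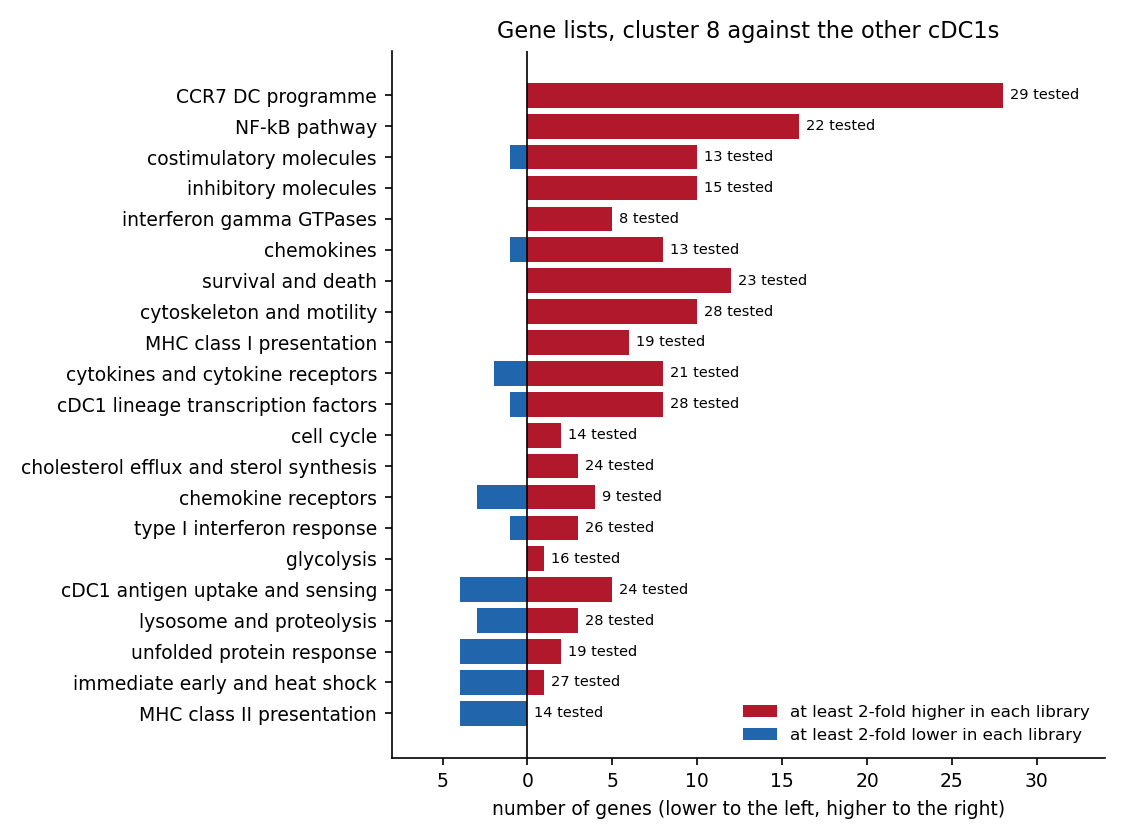
Number of genes per list at least 2-fold higher (to the right) or lower (to the left) in cluster 8 in each of the 3 libraries, with the number tested beside each bar. The bars reach 28 of 29 for the CCR7 dendritic cell programme and 4 of 14 on the lower side for MHC class II presentation.

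Single cells showed how evenly this programme was held. Each cell was thinned at random to 4000 UMIs, which left out 59 of the 255 cells and kept 70, 83 and 43. A cluster 8 cell then held a median of 76, 77 and 35 UMIs of the 30 programme genes, against 5 in the other cDC1s of each library. No other cDC1 reached the cluster 8 median of its library. The cells were clustered on these counts and the list holds the markers of the cluster, so this gap is a description. At the low end, 8 of 70, 11 of 83 and 12 of 43 cluster 8 cells held no more than the 99th percentile of the other cDC1s (18, 17 and 16 UMIs). The quartiles of cluster 8 were 49.75 and 106.75 in WT, 36 and 106.5 in sGSN-/- and 15.5 and 104 in sGSN-/-Clec9a-/-. The upper quartiles were thus alike, and the libraries differed in how many cells lay low.

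**Figure D3:**
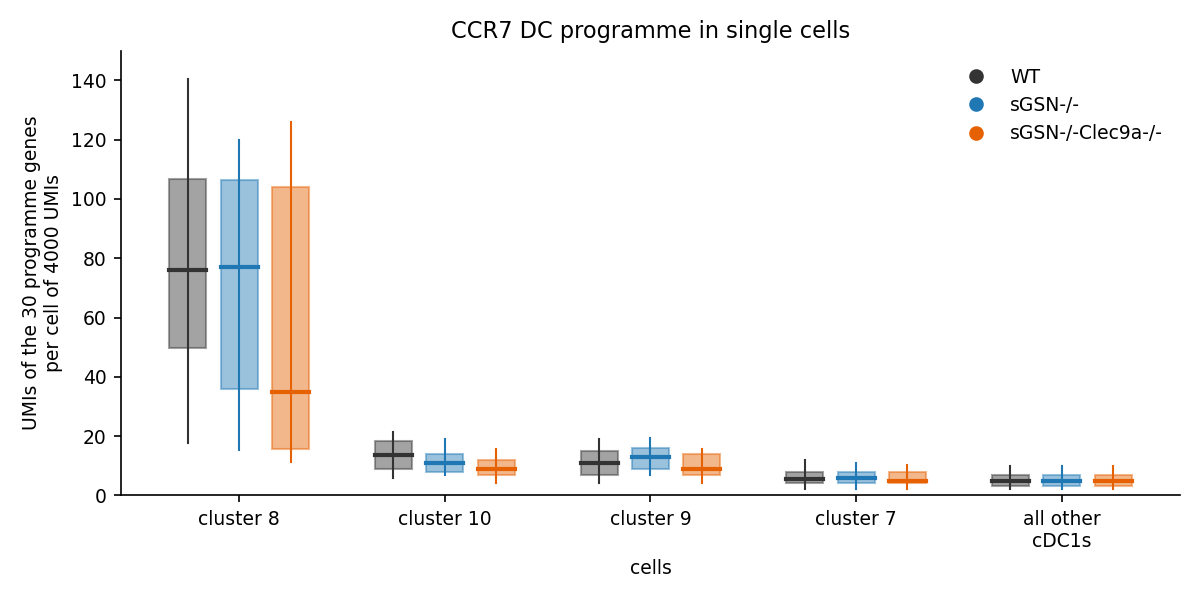
UMIs of the 30 programme genes per cell thinned to 4000 UMIs, by cluster and library, with the median (line), the quartiles (box) and the 10th to 90th percentile (whisker). Cluster 8 has medians of 76, 77 and 35, and the other groups lie between 5 and 13.5.

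The 4 marker genes were not found in every cell. *Ccr7* had a UMI in 84.3, 90.4 and 65.1% of the thinned cluster 8 cells, in 0.367, 0.987 and 0.618% of the other cDC1s, and, as a background, in 1.49, 1.97 and 1.73% of NK cells. For this gene the NK share lay above that of the other cDC1s, so it is no measure of free RNA alone. *Fscn1* had a UMI in 50, 50.6 and 23.3% of cluster 8 cells and in 0.136, 0.358 and 0% of NK cells. *Il12b* had a UMI in 74.3, 71.1 and 46.5% against 0.272, 0.179 and 0.124% of NK cells, and *Ccl22* in 78.6, 72.3 and 72.1% against 0.543, 0.538 and 0.248%. Before thinning the shares in cluster 8 were 86.9, 88.6 and 64.9% for *Ccr7* and 51.2, 53.5 and 29.8% for *Fscn1*, with a median depth of 9272, 7403 and 6362 UMIs in the NK cells. All 4 markers together were seen in 30 of 70, 29 of 83 and 9 of 43 cells, and none of them in 6, 5 and 7. All 4 were thus least frequent in sGSN-/-Clec9a-/-, *Ccl22* by the smallest margin.

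Of the clusters that the study calls activated (7, 8, 9 and 10), cluster 8 held the programme at levels that the others did not reach. The mean over the 3 libraries of *Ccr7* was 2001 CPM in cluster 8, 6.50 in cluster 7, 2.79 in cluster 9 and 26.9 in cluster 10. *Relb* followed with 469 CPM against 28.1, 79.4 and 87.8. Of the 615 genes higher in cluster 8, 21, 40 and 70 (3.41%, 6.50% and 11.4%) were also at least 2-fold higher in clusters 7, 9 and 10 than in the other cDC1s and 0, 9 and 19 lower, against 136, 66 and 119 of all 6999 genes tested that were higher (1.94%, 0.943% and 1.70%). Of the 495 lower ones 2, 4 and 46 (0.404%, 0.808% and 9.29%) were also lower and 10, 3 and 2 higher, against 8, 49 and 116 of all genes tested that were lower (0.114%, 0.700% and 1.66%). Some single features were nevertheless shared or exceeded elsewhere. *Cxcl9* was highest in cluster 10, at 4832 CPM against 516 in cluster 8, and so was *Irf1*, at 667 against 228 CPM. *Nfkbia* was highest in cluster 9, at 1919 against 1419.7 CPM. Loss of *Cxcr3* and *Tlr3* was found in cluster 10 too, at 3.44 and 42.03 CPM against 6.70 and 24.9 CPM in cluster 8. *Egr1* was low in both as well, at 104 CPM in cluster 8 and 219 in cluster 10, against 2445 in cluster 9.

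Cells of cluster 8 with and without *Fscn1* UMIs differed in programme genes and in cDC1 markers, and *Fscn1* is itself a programme gene. After these data had been seen, the cells with at least 4000 UMIs were split by whether *Fscn1* had a UMI at that depth. Cells with it were 35 of 70 (50%, exact 95% interval 37.8% to 62.2%), 42 of 83 (50.6%, 39.4% to 61.8%) and 10 of 43 (23.3%, 11.8% to 38.6%), of which 3, 3 and 1 had only 1 UMI. A class made from a value per cell is a range and no cell type. Their sums held 477978, 500731 and 83485 UMIs, and those without *Fscn1* 529473, 703656 and 406203. A cell with *Fscn1* held a median of 12772, 11035.5 and 7693.5 UMIs and a cell without it 12848, 16238 and 12275. The classes thus differed in depth in sGSN-/- and sGSN-/-Clec9a-/-, and the part of depth in their differences was not tested. Of 2760 genes tested by the same rule, at a higher minimum of 50 CPM, 228 were higher in cells with *Fscn1* (8.26%) and 156 lower (5.65%). Of the genes higher in cluster 8 than in other cDC1s, 449 were tested here, and 159 rose further with *Fscn1* while 4 fell. Of 89 genes lower in cluster 8, 35 fell further and 0 rose.

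Cells with *Fscn1* carried most of the T-cell chemokine and OX40. *Ccl5* stood at 6201, 7892 and 8421 CPM in cells with *Fscn1* and 157, 378 and 441 CPM in those without. *Tnfrsf4* stood at 291, 411 and 383 CPM against 9.44, 29.8 and 36.9 CPM, and *Il15ra* at 128, 184 and 323 CPM against 13.2, 25.6 and 14.8 CPM. *Cd63* stood at 1105, 1516 and 1461 CPM against 215, 176 and 153 CPM. The libraries did not overlap between the classes for any of these 4 genes, whose mean log2 ratios were 4.64, 3.96, 3.45 and 2.90. *Npr1*, which encodes a receptor for natriuretic peptides, was nearly confined to cells with *Fscn1*, with 52, 62 and 10 UMIs against 1, 0 and 0. *Tcf7*, a transcription factor best known from T cells, had 8, 33 and 9 UMIs against 0, 0 and 0. Of 18 class I genes tested 4 were higher (*H2-K1*, *B2m*, *Psme2* and *H2-Q7*) and 1 lower (*Calr*), with *H2-K1* at 3075, 3299 and 3426 CPM against 1409, 1593 and 1393 CPM.

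Many class II genes and cDC1 markers were lower in the cells with *Fscn1*. *H2-Ab1* stood at 2626, 1220.2 and 1138 CPM with and 10049.6, 9594 and 10770.5 CPM without *Fscn1*, and *Cd74*, the class II chaperone, at 9906, 6461 and 5702 CPM against 23085, 21098 and 22174 CPM. Of 12 class II genes tested 7 were lower and 0 higher, with a median of −1.82. Cells without *Fscn1* had *H2-Ab1* near the 10355, 10589 and 10669 CPM of the other cDC1s. Among cells of at least 4000 UMIs the loss of this gene thus lay in the cells with *Fscn1*. The 59 shallower cells of cluster 8 are outside the split. Class II was low there too, with *Cd74* at 7277, 4029 and 3279 CPM against 16833, 15013 and 19365 CPM in the deeper cells. Of the 8 cDC1 markers 5 were lower (*Xcr1*, *Cadm1*, *Itgae*, *Naaa* and *Wdfy4*) and 1 higher (*Batf3*). *Xcr1* stood at 64.9, 35.9 and 59.9 CPM against 181, 225 and 219 CPM, the latter close to other cDC1s. *Cadm1*, an adhesion molecule used to sort cDC1s, had 1, 5 and 0 UMIs with *Fscn1* against 63, 65 and 58 without. *Batf3* stood at 266, 274 and 204 CPM against 125, 128 and 96.01 CPM, so this lineage factor rose where the surface identity fell, and *Irf8* at 887, 915 and 743 CPM against 584, 495 and 574 CPM was in neither class.

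Other genes marked the cells without *Fscn1* or were shared. *Cxcl9* stood at 81.6, 154 and 204 CPM with and 1014, 569.9 and 731 CPM without *Fscn1*, and *Il1b* at 1144, 403 and 144 against 2406, 1939.9 and 2137 CPM. Most *Cxcl9* UMIs of cluster 8 thus lay in the class without *Fscn1*. Of 15 genes of the unfolded protein response 6 were lower with *Fscn1* and 0 higher, with a median of −1.10, and of 17 uptake and sensing genes 7 were lower and 0 higher. *Bcl2a1b* (2117, 1905 and 1940.5 against 1823, 1997 and 1445 CPM), *Cd83* (1322, 1418 and 1737 against 1458, 1434 and 1659 CPM) and *Nfkbia* (mean log2 ratio 0.37) were in neither class. Of 21 NF-kB genes 2 were higher with *Fscn1* and 0 lower, and of 19 genes of survival and death 6 were higher and 1 lower (*Bcl2l11*). *Ccr7* itself was high in both, at 3011, 3579 and 3066 CPM against 1811, 1687 and 741 CPM. *Il12b* stood at 2772, 2251 and 2671 CPM against 2176, 1883 and 689 CPM.

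**Figure D4:**
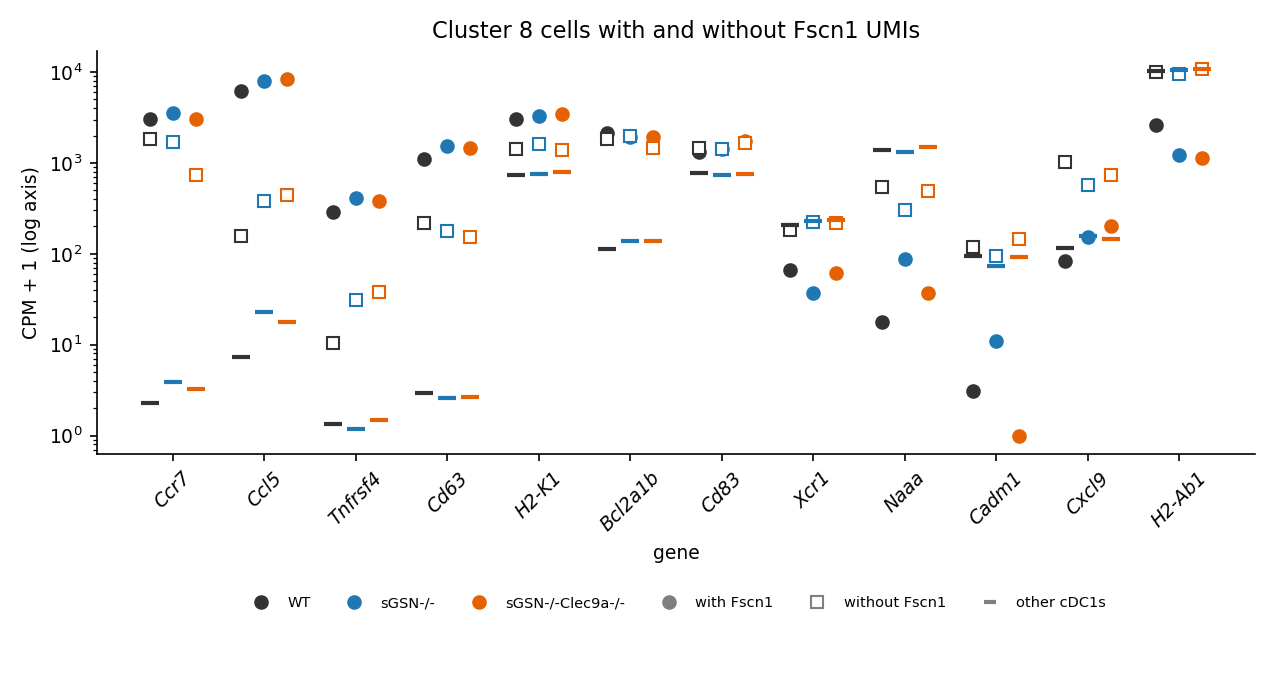
Levels (CPM + 1, log axis) of 12 genes in cluster 8 cells with *Fscn1* UMIs (filled circles), without them (open squares) and in the other cDC1s (bars), 1 mark per library. *Ccl5* is highest with *Fscn1* (6201 to 8421 CPM), and *H2-Ab1* is lowest there (1138 to 2626 CPM).

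Within libraries the marker genes varied in different ways from cell to cell. Spearman's rho between *Fscn1* and *Ccl5* over the thinned cells was 0.74 (n = 70), 0.74 (n = 83) and 0.72 (n = 43). Between *Ccl22* and *Ccl5* it was 0.03, −0.03 and 0.42, and between *Fscn1* and *Xcr1* −0.40, −0.47 and −0.18. *Ccl5* therefore went with *Fscn1* in every library and with *Ccl22* clearly in 1 only. The rho of *Ccr7* with *Il12b* was 0.21, 0.42 and 0.74. Cells of 1 library share its tumours and its free RNA, so these are descriptions.

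The share of cluster 8 among cDC1s was highest in sGSN-/-. It was 3.63% (84 of 2316, exact 95% interval 2.90% to 4.47%) in WT, 6.66% (114 of 1712, 5.52% to 7.95%) in sGSN-/- and 3.21% (57 of 1778, 2.44% to 4.13%) in sGSN-/-Clec9a-/-. Of the cells in clusters 7 to 10 it made up 25.8% (21.1% to 30.875%), 36.2% (30.877% to 41.8%) and 20.8% (16.2% to 26.1%). The sGSN-/- interval did not meet those of the other libraries in either share, in the second by a very small margin from WT. Intervals cover counting error only, and genotype, pool and library cannot be told apart. In sGSN-/- 31 of the 114 cells were below 4000 UMIs, against 14 of 84 and 14 of 57, and these shallow cells had a median mitochondrial share of 5.59%, 5.64% and 2.25%. Among cells of at least 4000 UMIs the share was 3.11%, 5.18% and 2.59%. Of cluster 8 cells with UMIs of either Y-linked genes or *Xist* but not both, 14.8%, 35.6% and 25% were Y-positive, near the 19.4%, 36.3% and 23.5% of the other cDC1s. In WT the Y-positive cells were the minority (379 against 1573 of the other cDC1s), although that pool had 25 males and 12 females. The numbers of mice therefore do not give the sex mix of the cells, and the cause was not tested.

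Few genes of cluster 8 were called between sGSN-/- and WT, and most of the higher ones depended on the cells used. With 1 CPM added, 9 of 2564 genes at 50 CPM or more in either library were at least 2-fold higher in sGSN-/- (0.351%) and 24 lower (0.936%), against 0 and 2 of 2497 in the other cDC1s. Without possible doublets 3 of the 9 and 14 of the 24 were kept, and thinned cells kept 4 and 16 of them among 79 higher and 103 lower genes. Cluster 8 has far fewer cells, and its median absolute log2 ratio was 0.17 against 0.07. *Ccr7* was equal, with a ratio of 1.005 (95% interval 0.953 to 1.06). *Plac8*, which encodes a small cysteine-rich protein, stood at 357 CPM in sGSN-/- and 149 CPM in WT, a ratio of 2.38 (95% interval 1.99 to 2.89) against 1.37 in the other cDC1s. *Gm26917*, a noncoding transcript, stood at 123 and 40.7 CPM, but this gain was absent from the thinned cells (log2 ratio −0.084). Among genes at 100 CPM or more the next by size, *Furin* (1.78), *Sct* (1.73) and *Paxbp1* (1.66), did not reach 2-fold.

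At the lower end stood complement, lipid and phagocytosis genes, held by a few WT cells. *C1qa*, a complement gene, stood at 5.51 CPM in sGSN-/- against 134 CPM in WT, and *Apoe*, a lipid carrier, at 19.7 against 256 CPM. *Mfge8*, which bridges phagocytes to dying cells, stood at 11.8 against 193 CPM, and *C1qb* at 9.45 against 114 CPM. In WT the 3 cells richest in each gene held 89.9% of the *C1qa*, 85.6% of the *Apoe*, 95.0% of the *Mfge8* and 89.8% of the *C1qb* UMIs. These values therefore describe a handful of barcodes and not the cluster. *Ccl3*, an inflammatory chemokine, stood at 35.4 against 110.4 CPM, with 74.6% of the WT UMIs in 3 cells.

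Against WT, the sGSN-/-Clec9a-/- library held less of the CCR7 programme within cluster 8. Of 2629 genes 37 were at least 2-fold higher (1.41%) and 112 lower (4.26%), against 0 and 7 of 2458 in the other cDC1s, and genes that mark cluster 8 made up 42 of the 112 lower genes (37.5%), 5 of the 37 higher ones (13.5%) and 387 of all 2629 (14.7%). *Ccr7* stood at 1166 CPM against 2412 CPM in WT, a ratio of 0.484 (95% interval 0.442 to 0.529). *Il12b* stood at 1048 against 2434 CPM, a ratio of 0.431 (95% interval 0.392 to 0.473), and *Fscn1* at 469.6 against 1078 CPM, a ratio of 0.436 (95% interval 0.377 to 0.501). In this library 3 cells held 61.2% of the 242 *Fscn1* UMIs, and the intervals treat UMIs as independent. Of 27 programme genes 7 were at least 2-fold lower and 0 higher, with a median log2 ratio of −0.68 in cluster 8 and −0.11 in the other cDC1s. Class II genes leaned the other way, with a median of 0.43 over 11 genes and 0 past 2-fold in either direction. Beside them stood the smaller share of cells with *Fscn1*, 23.3% against 50%, whose part in them was not tested over libraries. Among cells with *Fscn1* the log2 ratio to WT was 0.026 for *Ccr7*. Among cells without it *Ccr7* remained lower, at 741 CPM against 1811 CPM. These 2 classes hold 10 and 33 cells in this library, so their values rest on few cells.

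Single genes set the sGSN-/-Clec9a-/- library apart from WT in both directions. *Plet1*, which encodes a GPI-anchored surface protein, stood at 194 CPM against 43.6 CPM in WT, a ratio of 4.37 (95% interval 3.10 to 6.48). *Itgae*, the CD103 integrin chain of cDC1s, stood at 111 against 34.9 CPM, a ratio of 3.11 (95% interval 2.05 to 4.96). *Furin*, a protease that matures secreted proteins, stood at 233 against 72.7 CPM, a ratio of 3.17 (95% interval 2.38 to 4.34). Both *Plet1* and *Itgae* lay mostly in the cells without *Fscn1*, where they stood at 244 against 83.1 and 140.3 against 60.4 CPM. The cells with it had 0 UMIs of either gene in this library and 1 and 3 in WT, and 3 cells held 81% of the *Plet1* UMIs of this library. *B930036N10Rik*, an antisense transcript (4.17), and *Cxcl2*, a neutrophil chemokine (2.91), had 50% and 57.1% of their UMIs in 1 cell of this library. The 5 lowest were *C1qa*, *Mfge8* and *Apoe*, which lay in few WT cells as above, then *Sct* and *Idi1*. *Sct*, which encodes the hormone secretin, stood at 21.3 against 101 CPM, with 66.3% of the WT UMIs in 3 cells. *Idi1*, an enzyme of sterol synthesis, stood at 29.1 against 123 CPM, a ratio of 0.243 (95% interval 0.129 to 0.405) against 0.590 in the other cDC1s. In WT 3 cells held 51.2% of the *Idi1* UMIs.

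Against sGSN-/-, which differs from it in genotype by *Clec9a* alone, the sGSN-/-Clec9a-/- library also held less of the CCR7 programme. Both comparisons of this library share its cells, so they are not independent. Of 2603 genes 64 were at least 2-fold higher (2.46%) and 93 lower (3.57%), against 0 and 5 of 2447 in the other cDC1s, and genes that mark cluster 8 made up 38 of the 93 lower genes (40.9%), 6 of the 64 higher ones (9.38%) and 385 of all 2603 (14.8%). *Ccr7* had a ratio of 0.481 (95% interval 0.440 to 0.525), and of 27 programme genes 5 were lower and 0 higher, with a median of −0.71 against −0.13 in the other cDC1s. Sterol genes were lower too, 4 of 9 and 0 higher, with a median of −0.87 in cluster 8 and −0.49 in the other cDC1s. *Fdps*, an enzyme of that pathway, stood at 25.2 CPM against 121 CPM, a ratio of 0.215 (95% interval 0.108 to 0.367) against 0.600 in the other cDC1s. The sterol fall was thus not particular to cluster 8. Type I interferon targets were lower in 4 of 19 and higher in 0, with a median of −0.69 against −0.15.

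The further leading genes of this pair were of mixed function. *Sct* stood at 21.3 against 175 CPM, *Slc27a3*, a fatty acid transporter, at 31.05 against 142 CPM, and the noncoding *Gm13546* at 38.8 against 165 CPM. *Idi1* had a ratio of 0.271. *Slc27a3* and *Gm13546* are themselves genes that mark cluster 8. At the upper end *Lyz2*, which encodes lysozyme, stood at 456 against 141 CPM, *Egr3*, an immediate early factor, at 163 against 50.4 CPM, and *Arf2*, a GTPase of vesicle traffic, at 128 against 39.4 CPM. *B930036N10Rik* (2.95) and *Cxcl2* (2.63) completed the 5.

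Markers of other cell types were summed in cluster 8 and in the other cDC1s, and their part in the differences was not tested. cDC2 markers summed to 135, 33.1 and 71.8 CPM against 66.5, 65.6 and 64.9, with *Mgl2* the most abundant, *Clec4a4* at 0, 1 of 5 tested higher (*Irf4*) and 1 lower (*Cd209a*). Macrophage and monocyte markers summed to 670.4, 131 and 130.0 CPM against 373, 342 and 360.4, with *Apoe* the most abundant and 0 of 7 higher and 1 lower (*Ccr2*), and 3 WT cells held 74.0% of the 692 UMIs. NK cell markers summed to 22.3, 211 and 42.7 CPM against 19.1, 48.5 and 27.5, with *Gzma* the most abundant and 0 of 4 in either class, and 3 sGSN-/- cells held 76.5% of the 268 UMIs. A few cells thus carried most of the macrophage and NK signal of these 2 libraries. Pre-cDC markers summed to 879.7, 919 and 753 CPM against 715, 728 and 676, with 1 of 4 higher (*S100a4*), *S100a6* the most abundant and *Ctsg* and *Mpo* at 0. pDC markers summed to 438, 534 and 332 CPM against 349.9, 384 and 361, nearly all *Bst2*, with 0 of 2 in either class. No gene of the T cell, B cell, neutrophil or stromal lists reached the minimum to be tested. T cell markers summed to 4.84, 14.96 and 3.88 CPM (most *Trac*, *Lat* at 0), B cell markers to 2.91, 8.66 and 1.94 (most *Ms4a1*, with *Cd79a* and *Pax5* at 0), neutrophil markers to 0.969, 0.787 and 0 (only *Csf3r* and *Cxcr2* above 0), and tumour and stromal markers to 13.6, 7.08 and 19.4 (most *Sparc*, *Cdh5* at 0). Possible doublets, cells with UMIs of at least 3 marker genes of 1 other type, were 11 of 84, 9 of 114 and 4 of 57 cluster 8 cells, 13.1%, 7.89% and 7.02%, and 14.6%, 10.1% and 9.82% of the other cDC1s.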

How the data were processed

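The deposited matrices hold raw UMI counts per gene and barcode, which the authors made with Cell Ranger (6.0.1 per the file headers) on mm10/GRCm38. The deposited cDC1 table, from Seurat, gives each cell's UMI count, library and cluster number, and its cells were matched to the matrices by barcode and library. Counts were summed over cluster 8 and over the other cDC1s of each library and scaled to CPM of all UMIs. With 1 library per genotype and clusters drawn from the same counts, no p-value is given. Exact (Clopper-Pearson) 95% intervals cover counting error only. Thinning drew 4000 UMIs per cell without replacement (seed 20).

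The members and gene lists were chosen with earlier results of these data known. Genes named were the 4 markers, the 15 with the largest and the 15 with the smallest mean log2 ratio at 50 CPM or more among called genes, the 5 at each end between genotypes at 100 CPM or more, and for each list its most abundant member and those with the largest changes. Genes of the *Fscn1* split, and a few others named for their role, were chosen after their values were seen. Some genes are not reported here. NK cells, used as a background that includes free RNA, were barcodes outside the table with at least 3 of 5 NK genes and no *Xcr1* or *Flt3*. Coordinates came from GENCODE M21, matched by Ensembl ID for 576 of 576 genes, and promoters from RefSeq (GRCm38.p6).

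Alternatives were TMM scaling, edgeR 4.0.16 (quasi-likelihood) and DESeq2 1.42.0 in R 4.3.3, both at an adjusted p of 0.05, added values of 0.5 and 5 CPM, no filter or a higher one, single libraries left out, thinned cells, no possible doublets, and the other cDC1s without clusters 7, 9 and 10 or without cluster 11. The call rule was tested on simulated data. Python 3.11.15, numpy 2.4.6, scipy 1.17.1, pandas 2.3.3 and matplotlib 3.10.9 were used.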

Additional observations from a re-analysis of the deposited data

Results flagged for a closer look

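Cells with the *Ccr7* and *Fscn1* transcripts were also found among barcodes that are not in the cDC1 table, and so outside the comparisons above. There were 151 such barcodes with at least 1 UMI of both genes and none of *Xcr1*, 65 in WT, 73 in sGSN-/- and 13 in sGSN-/-Clec9a-/-. They were singled out because they lay outside the main comparison, and the presence of both transcripts in them follows from the way they were selected. Their *Ccr7* level was 1967, 1549 and 2369.8 CPM and their *Fscn1* level 1003, 808 and 978 CPM. Cluster 8 held 2412, 2424 and 1166 CPM of *Ccr7* and 1078, 874 and 469.6 CPM of *Fscn1*. Both genes were thus higher outside in sGSN-/-Clec9a-/- and lower outside in WT and sGSN-/-, but both were used to select these barcodes. Thinned to 4000 UMIs, they held a median of 64, 51 and 72 UMIs of the 30 programme genes, against 76, 77 and 35 in cluster 8, but these 30 include the 2 genes used for selection. Of the 615 genes higher in cluster 8 than in other cDC1s, 46 were at least 2-fold higher in cluster 8 than in these barcodes in each library and 18 lower, with a median log2 ratio of 0.39.

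Over all 7288 genes compared, 124 were higher and 415 lower in cluster 8, with a median of −0.21. *Il12b* was among the higher ones, and genes linked to cDC2s and to macrophages were among the lower ones. Macrophage and monocyte markers summed to 1533, 2118 and 1392 CPM outside against 670.4, 131 and 130.0 in cluster 8, with *Apoe* the most abundant, none at 0 and 7 of 9 compared lower in cluster 8. cDC2 markers summed to 620.0, 887 and 661 CPM against 135, 33.1 and 71.8, with *Mgl2* the most abundant, none at 0 and 4 of 7 lower. Pre-cDC markers summed to 4627, 4227 and 4153 CPM against 879.7, 919 and 753, with *S100a4* the most abundant, *Ctsg* at 0 and 5 of 5 lower. NK cell markers summed to 411, 489 and 265 CPM against 22.3, 211 and 42.7, with *Gzmb* the most abundant, none at 0 and 4 of 9 lower, and T cell markers to 25.6, 78.7 and 523 CPM against 4.84, 14.96 and 3.88, with *Cd8b1* the most abundant, none at 0 and 4 of 7 lower. cDC1 markers went the other way, at 765, 792 and 1133 CPM against 1631, 1559 and 1814, with *Irf8* the most abundant outside and 4 of 8 higher and 0 lower in cluster 8, while *Xcr1* is at 0 by the way the barcodes were chosen. The part of these cell types in the differences was not tested. *Il12b* stood at 2434, 2087 and 1048 CPM in cluster 8 and 539, 402 and 460.2 CPM outside, and *Cxcl9* at 562, 376 and 611 against 57.3, 101 and 34.5 CPM. *Il7r* stood at 70.7, 59.8 and 60.2 against 364, 263 and 276 CPM, and *Cd209a*, a lectin of cDC2s, at 8.72, 3.94 and 9.70 against 187, 99.9 and 196 CPM. Cluster 8 thus held more of the IL-12 subunit and less of the IL-7 receptor. What these barcodes are was not tested, and no difference was tested.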

How the results depend on the processing

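Of the 549 genes followed (431 with edgeR and DESeq2), 0 of those called higher or lower in cluster 8 changed direction under any setting tried. The number of higher genes, 615, was 359 with a minimum of 50 CPM, where fewer genes are tested, and 1072 with DESeq2. The number of lower genes, 495, was 206 with that minimum, 326 with 5 CPM added, 1020 with edgeR, 1015 with edgeR and the library as a block, and 783 with DESeq2. The cause of the latter 4 was not tested. Of the 615 higher genes DESeq2 kept 615 and edgeR 614, and of the 495 lower genes 471 and 494. With the library as a block edgeR called 920 higher genes, as it did without. Leaving out 1 library gave 649 to 793 higher and 592 to 852 lower genes, and without sGSN-/-Clec9a-/- replicate 1 the lower genes numbered 852. In thinned cells 615 genes were higher, 522 of them the same genes, and 596 lower, 348 the same. Under the remaining settings higher genes numbered 507 to 741 and lower genes 443 to 724. The share of cluster 8 in sGSN-/- was 5.18% among cells of at least 4000 UMIs.

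Counts between genotypes moved more. For sGSN-/- over WT (9 higher, 24 lower), sGSN-/-Clec9a-/- over WT (37, 112) and sGSN-/-Clec9a-/- over sGSN-/- (64, 93), a minimum of 100 CPM gave 2 and 9, 17 and 47, and 25 and 34, since fewer genes pass it. Thinned cells, with fewer UMIs, gave 79 and 103, 167 and 269, and 157 and 237, and kept only 4 of the 9 and 16 of the 24 genes, 26 of 37 and 70 of 112, and 43 of 64 and 62 of 93. Without possible doublets the counts were close, 9 and 23, 44 and 104, and 65 and 96, but only 3 of the 9 and 14 of the 24 were kept, 28 of 37 and 78 of 112, and 51 of 64 and 73 of 93. Which genes differ between sGSN-/- and WT thus depended on the cells used. Cells with *Fscn1*, an alternative chosen after seeing the data, gave 47 and 88, 295 and 365, and 295 and 277 from fewer UMIs, and cells without it 37 and 50 in the first pair.

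Ratios that changed direction (log2) were *Gm26917* in thinned cells (−0.084) and *Mfge8* in cells without *Fscn1* (1.49), both for sGSN-/- over WT. In cells with *Fscn1* they were *Plet1* (−1.63), *B930036N10Rik* (−0.18), *Itgae* (−2.86), *Cxcl2* (−0.18), *Ccr7* (0.026) and *Fscn1* (0.12) for sGSN-/-Clec9a-/- over WT, and *Egr3* (−5.73) and *B930036N10Rik* (−0.49) for sGSN-/-Clec9a-/- over sGSN-/-. *Plet1* and *Itgae* had 0 UMIs there in sGSN-/-Clec9a-/- and 1 and 3 in WT, and *Fscn1* is the gene these cells were selected on, so these 3 carry no evidence on direction. *Egr3* had 0 UMIs there in sGSN-/-Clec9a-/- and 26 in sGSN-/-. The cause was not tested.

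The depth of cluster 8 limits all of this. The smallest sum, 515307 UMIs in 57 cells, gives a gene at 50 CPM few counts, and a few cells can set a ratio between genotypes. Genotype, pool, sex mix and library cannot be told apart with 1 library each. Cluster against rest is a description, since the cells were clustered on these counts. Free RNA and doublets were described and not removed.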
